A study of Mus musculus with 23 samples.

Results

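Glucocorticoids release amino acids from muscle, and this account follows 10 mouse genes for that traffic, 8 amino acid transporters (Slc7a5, Slc3a2, Slc7a8, Slc7a1, Slc7a2, Slc38a1, Slc38a2 and Slc38a4) and the enzymes Glul and Gpt2, in the quadriceps. The 10 genes were taken by symbol from the 55573 Ensembl gene IDs of the count table, each symbol matching 1 ID. Of these 10 genes, 9 were among the 13049 genes with enough counts to be tested, and Slc38a1 was not. C57BL/6J mice of 8 to 10 weeks, as the study's methods give them (C57Bl6 in the labels), carried a slow-release pellet under the skin for 14 days, holding either 50 mg corticosterone with 50 mg cholesterol or, as vehicle, 100 mg cholesterol. Corticosterone is the main glucocorticoid of mice. Sequenced were 6 vehicle-treated and 6 corticosterone-treated male mice and 6 vehicle-treated and 5 corticosterone-treated female mice, all fasted for 5 h before collection. Mice carry an F or M for the sex followed by a number, odd for vehicle and even for corticosterone.

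Muscle exports nitrogen from degraded protein mainly as glutamine and alanine. Glutamine synthetase (Glul) joins ammonia to glutamate, and alanine transaminase 2 (Gpt2) moves the amino group of glutamate onto pyruvate. System L exchangers trade glutamine for leucine and other large neutral amino acids, cationic transporters carry arginine and lysine, and sodium-coupled SNAT transporters concentrate small neutral amino acids such as glutamine and alanine in the fiber. Glul is a textbook glucocorticoid-induced gene of muscle.

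The upstream sequences of 3 genes that rose with corticosterone are shown so that the motif search can be followed. RefSeq windows on GRCm38.p6, 250 bases before to 50 bases after a transcription start, were at hand for 7 of the 10 genes, in 10 windows. Printed are the 250 bases before the start, 5′ to 3′ on the strand of the gene, with CCAAT boxes in capitals. The only window of Slc3a2 belongs to an inner start within the annotated span of the gene, 8706882 to 8723369. The bases before the annotated start of Slc3a2 were thus not searched.
Glul chr1:153899679-153899928 (plus strand): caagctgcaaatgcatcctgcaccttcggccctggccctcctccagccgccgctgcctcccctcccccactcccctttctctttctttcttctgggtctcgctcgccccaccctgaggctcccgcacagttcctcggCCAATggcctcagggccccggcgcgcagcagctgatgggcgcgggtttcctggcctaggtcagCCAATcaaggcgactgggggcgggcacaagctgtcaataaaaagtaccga
Slc3a2 chr19:8713898-8714147 (minus strand): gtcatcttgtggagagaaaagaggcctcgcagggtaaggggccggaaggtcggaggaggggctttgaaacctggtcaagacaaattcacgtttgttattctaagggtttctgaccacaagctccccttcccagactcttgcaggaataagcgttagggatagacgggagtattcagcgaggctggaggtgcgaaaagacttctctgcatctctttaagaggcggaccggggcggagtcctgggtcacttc
Slc7a8 chr14:54781887-54782136 (minus strand): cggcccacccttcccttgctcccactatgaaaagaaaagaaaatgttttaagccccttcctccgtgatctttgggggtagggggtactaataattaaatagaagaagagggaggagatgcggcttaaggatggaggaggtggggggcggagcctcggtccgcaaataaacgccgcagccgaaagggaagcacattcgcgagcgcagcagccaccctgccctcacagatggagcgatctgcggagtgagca
In the windows of Glul, Slc3a2 and Slc7a8 neither the glucocorticoid receptor hexamer AGAACA, nor the same hexamer facing its reverse complement across 3 bases with up to 2 of 12 bases differing, nor the core TGATGNAA of sites bound by ATF4 was found on either strand. Among all 32851 windows 19.0% held the hexamer, 1.8% the inverted repeat and 4.0% the ATF4 core. The inverted repeat contains hexamers or near matches to them, so that the searches overlap. Glul held the CCAAT box at positions -113 and -50 from the start, a box found in 37.4% of windows. Matches to the hexamer were found in another window of Slc7a1 than that nearest its annotated start, from position -75, and in the innermost window of Slc38a4, from position -108. In Slc7a1 it belonged to a match to the inverted repeat with 2 differing bases, in which the capitals mark the hexamer in reverse complement.
Slc7a1 chr5:148392885-148392899 (minus strand): aaaacgtatTGTTCT
Neither Slc7a1 nor Slc38a4 passed the threshold with corticosterone in either sex, and a missing match says only that these letters are not in these windows.

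Counts on genes lay between 20904150 and 21984477 per mouse. CPM are counts scaled to an equal library size over the tested genes after TMM normalization, log2FC is the log2 of the fold change between group means, and a gene was called when its p-value from edgeR's quasi-likelihood fit, adjusted over 13049 genes after Benjamini and Hochberg, was under 0.01. All 12 skeletal muscle markers were detected in every mouse, with 111032 to 286479 CPM in sum. Transcripts of other tissues varied between mice. The 12 hepatocyte markers summed to between 51.5 and 3067 CPM, with 1876 CPM of albumin (Alb) in F10, 1835 in M8, 1106 in M9, 1081 in M12 and 822 in F6. The 10 adipocyte markers summed to 406 to 1716 CPM in the 12 males, 541 to 3071 CPM in vehicle-treated females and 792 to 8591 CPM in corticosterone-treated females. Of these markers only leptin (Lep) was at 0 in any mouse. In bulk tissue, fewer cells of a type and less RNA per cell cannot be told apart. The labels name separate mice, and p-values measure the spread between them. Fkbp5, a direct glucocorticoid target, had 12.5 to 58.8 CPM in the vehicle-treated and 149 to 422 CPM in the corticosterone-treated mice.

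Corticosterone raised the transcripts of glutamine synthetase and of the heavy chain Slc3a2 in both sexes, and those of the arginine and lysine transporter Slc7a2 and of the system L exchanger Slc7a8 in males. In females Slc7a2 passed as well, but its call was lost in 20 of 23 fits without 1 mouse, and 2 of the 5 treated females lay in the vehicle range. In male mice 4 of the 9 tested genes passed the threshold, all upwards, against 26.3% of all genes tested in either direction and 13.2% upwards. In female mice 3 passed, all upwards, against 13.4% of all genes in either direction and 7.40% upwards. The median log2FC of the 9 genes was 0.64 in males and 0.24 in females, beside -0.02 and 0.04 over all genes tested. In males every corticosterone-treated mouse lay above every vehicle-treated mouse for the same 4 genes, where 10.8% of all genes were separated in this way. In females this held for Slc3a2 alone, against 3.38% of all genes. No gene of the 10 was called lower in either sex.

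**Figure D1:**
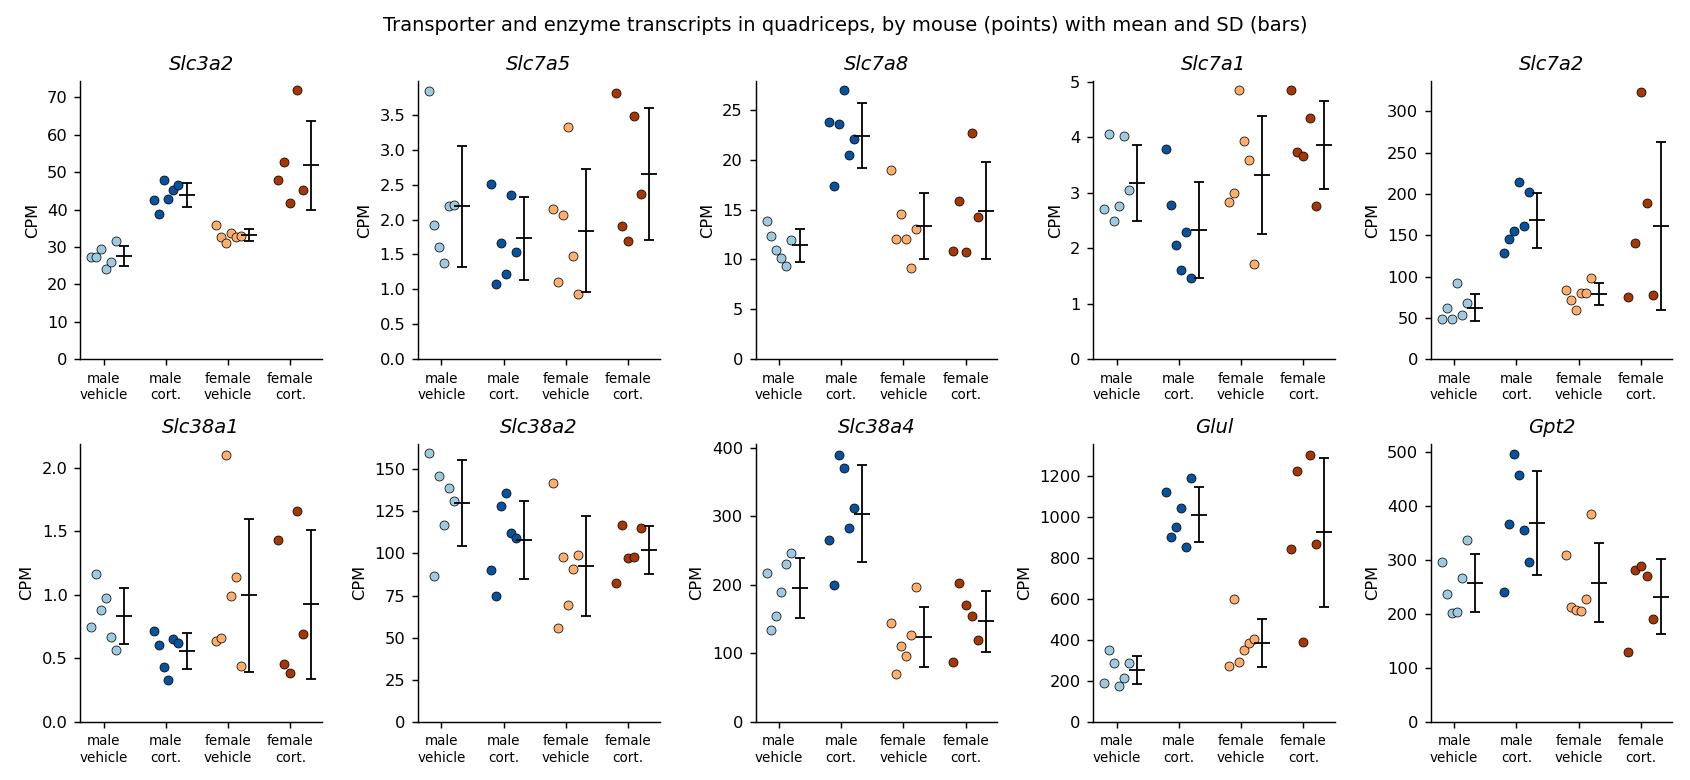
Level of the 10 transcripts in CPM (y axis, from 0, a separate scale per gene) in each of the 23 mice (points), with mean and SD beside them, by sex and treatment. In males Slc3a2, Slc7a8, Slc7a2 and Glul separate the treatments, while in females F4 lies low for Glul (388 CPM) and highest for Slc7a2 (323 CPM).

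Slc3a2 (ENSMUSG00000010095, chromosome 19, 8706882 to 8723369) encodes the heavy chain 4F2hc, which brings the light chains of the system L and y+L exchangers to the cell surface. Vehicle-treated males had 24.1 to 31.7 CPM (median 27.3) and corticosterone-treated males 38.8 to 48.0 CPM (median 43.9). Vehicle-treated females had 31.0 to 35.9 CPM (median 32.9), and corticosterone-treated females had 41.8 CPM in F4, 45.3 in F8, 48.0 in F10, 52.6 in F2 and 72.0 in F6. The treatments did not overlap in either sex, with F6 highest and F4 lowest among the treated females. The log2FC was 0.67 (SE 0.10, adjusted p = 2.28e-05) in males and 0.65 (SE 0.10, adjusted p = 0.000171) in females. Their difference was 0.02 (SE 0.14, adjusted p = 0.927).

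Slc7a8 (ENSMUSG00000022180, chromosome 14, 54722209 to 54781946) encodes LAT2, the system L light chain that also takes small neutral amino acids and is linked to efflux of glutamine. In males its level was 9.32 to 13.8 CPM (median 11.4) with vehicle and 17.4 to 27.0 CPM (median 22.8) with corticosterone, with no overlap. In females it was 9.13 to 19.0 CPM (median 12.5) with vehicle, and with corticosterone 10.7 CPM in F4, 10.8 in F10, 14.3 in F8, 15.9 in F2 and 22.7 in F6. Only F6 lay above all vehicle-treated females, and without F6 the log2FC in females was -0.05. Slc7a8 rose in males by a log2FC of 0.97 (SE 0.18, adjusted p = 0.000174). The log2FC in females was 0.17 (SE 0.18, adjusted p = 0.536). The difference of the 2 responses, 0.81 (SE 0.25), had an unadjusted p of 0.00427 and an adjusted p of 0.0413 in edgeR's test across all genes, and so did not pass the threshold. Its size stayed between 0.68 and 1.03 when any 1 mouse was left out.

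Slc7a5 (ENSMUSG00000040010, chromosome 8, 121881150 to 121907694), the system L light chain LAT1 that imports leucine into growing cells, was a rare transcript in this muscle. It had 1.38 to 3.84 CPM in vehicle-treated males and 1.07 to 2.51 in corticosterone-treated males. In females the ranges were 0.928 to 3.32 CPM with vehicle and 1.69 to 3.82 CPM with corticosterone. The groups overlapped in both sexes. The log2FC was -0.34 (SE 0.31, adjusted p = 0.401) in males and 0.53 (SE 0.32, adjusted p = 0.235) in females. Counted per kb of merged exons, vehicle-treated males had 7.84 CPM of the heavy chain, 2.28 of Slc7a8 and 0.591 of Slc7a5. After corticosterone the males had 12.5, 4.47 and 0.466 CPM per kb.

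Slc7a2 (ENSMUSG00000031596, chromosome 8, 40862396 to 40922308) encodes CAT2, a carrier of arginine, lysine and ornithine. Vehicle-treated males had 48.9 to 91.8 CPM (median 57.2) and corticosterone-treated males 128 to 215 CPM (median 158). Vehicle-treated females had 59.9 to 98.7 CPM (median 79.7), and corticosterone-treated females had 75.3 CPM in F10, 77.5 in F8, 141 in F2, 189 in F6 and 323 in F4. The treated males all lay above the vehicle-treated males, whereas among the treated females F2, F4 and F6 lay above all vehicle-treated females and F8 and F10 lay within their range. The log2FC was 1.43 (SE 0.27, adjusted p = 0.000279) in males. In females it was 1.03 (SE 0.28, adjusted p = 0.00953), just inside the threshold. Without F4 the value in females was 0.61 (SE 0.23, adjusted p = 0.0481), and with the adipocyte score of each mouse as a covariate it was 0.93 (SE 0.32, adjusted p = 0.0599). The slow fiber score was 4.01 in F4, 5.07 in F6, 7.43 in F10, 7.65 in F8 and 8.68 in F2. With that score as a covariate Slc7a2 stayed called in females. The responses of the sexes differed by 0.40 (SE 0.39, adjusted p = 0.486).

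Slc7a1 (ENSMUSG00000041313, chromosome 5, 148327410 to 148399904) encodes CAT1, the general carrier of cationic amino acids. It had 2.49 to 4.06 CPM with vehicle and 1.46 to 3.80 CPM with corticosterone in males, and 1.71 to 4.85 and 2.76 to 4.85 CPM in females. All groups overlapped. Its log2FC was -0.45 (SE 0.24, adjusted p = 0.140) in males and 0.22 (SE 0.24, adjusted p = 0.536) in females. Per kb of merged exons Slc7a2 stood above Slc7a1 in each group, at 6.79 against 0.276 CPM per kb in vehicle-treated males and 18.4 against 0.202 in corticosterone-treated males.

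Of the SNAT genes, Slc38a2 and Slc38a4 were abundant and Slc38a1 close to the limit of detection. Slc38a2 (ENSMUSG00000022462, chromosome 15, 96687392 to 96699730) encodes SNAT2, which is known for its rise when amino acids are short. It had 86.6 to 160 CPM with vehicle and 74.6 to 136 CPM with corticosterone in males, and 55.6 to 142 and 82.4 to 117 CPM in females. The treatments overlapped in both sexes, with a log2FC of -0.26 (SE 0.19, adjusted p = 0.278) in males and 0.14 (SE 0.20, adjusted p = 0.638) in females.

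Slc38a4 (ENSMUSG00000022464, chromosome 15, 96994820 to 97055956) encodes SNAT4, best known from liver and placenta. Vehicle-treated males had 134 to 246 CPM (median 203) and corticosterone-treated males 199 to 390 CPM (median 298), and only M12 of the treated males lay within the vehicle range. Vehicle-treated females had 70.2 to 197 CPM (median 118), and corticosterone-treated females had 87.1 CPM in F10, 120 in F8, 154 in F6, 170 in F4 and 203 in F2. The log2FC of 0.64 in males (SE 0.23, adjusted p = 0.0304) did not pass the threshold, nor did 0.24 in females (SE 0.24, adjusted p = 0.487). Hepatocyte markers were high in M8, M9, M12, F6 and F10, where Slc38a4 stood at 312, 246, 199, 154 and 87.1 CPM, and with the hepatocyte score as a covariate the log2FC was 0.67 (SE 0.23) in males and 0.27 (SE 0.24) in females. Slc38a1 (ENSMUSG00000023169, chromosome 15, 96571418 to 96642913), the glutamine carrier SNAT1, had between 6 and 49 counts per mouse, or 0.332 to 2.10 CPM. Under edgeR's own filter on low counts its log2FC was -0.57 (SE 0.38, adjusted p = 0.257) in males and -0.12 (SE 0.38, adjusted p = 0.853) in females.

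Glul (ENSMUSG00000026473, chromosome 1, 153899944 to 153909723), had the largest log2FC of the 9 genes tested in either sex. Vehicle-treated males had 176 CPM in M5, 191 in M1, 211 in M7, 284 in M3, 286 in M9 and 352 in M11. Corticosterone-treated males had 853 CPM in M6, 899 in M12, 950 in M2, 1044 in M4, 1122 in M10 and 1190 in M8. The treated males, from 853 CPM upwards, all lay above the highest vehicle-treated male at 352 CPM. Vehicle-treated females had 270 CPM in F1, 292 in F3, 348 in F5, 382 in F7, 401 in F9 and 596 in F11, and corticosterone-treated females had 388 CPM in F4, 843 in F10, 865 in F8, 1220 in F2 and 1299 in F6. The treated females lay above all vehicle-treated females except for F4, which lay within their range. Glul rose by a log2FC of 2.01 (SE 0.24, adjusted p = 2.02e-06) in males and 1.27 (SE 0.25, adjusted p = 0.000874) in females. Without F4 the log2FC in females was 1.47 (SE 0.21, adjusted p = 3.80e-05). The difference between the sexes of 0.74 (SE 0.34) had an unadjusted p of 0.0417 and an adjusted p of 0.139 in edgeR's test. Glul is also abundant in liver, and with the hepatocyte score as a covariate its log2FC was 1.98 (SE 0.25) in males and 1.22 (SE 0.25) in females. Teddm2 on the other strand shares 116 exonic bases with Glul, and reads were counted by strand. Mir8114 on the same strand shares 93 exonic bases with Glul and had 1 count over all mice.

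Gpt2 (ENSMUSG00000031700, chromosome 8, 85492576 to 85527560) did not pass the threshold in either sex. It had 202 to 337 CPM (median 251) in vehicle-treated and 240 to 497 CPM (median 360) in corticosterone-treated males. In females it had 205 to 386 CPM (median 220) with vehicle, and with corticosterone 130 CPM in F10, 191 in F8, 270 in F6, 282 in F2 and 288 in F4. M2, M4, M6 and M12 lay above all vehicle-treated males, and all treated females overlapped with the vehicle range or lay below it. The log2FC was 0.52 (SE 0.21, adjusted p = 0.0554) in males and -0.15 (SE 0.22, adjusted p = 0.655) in females, with a difference of 0.67 (SE 0.31, adjusted p = 0.136).

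**Figure D2:**
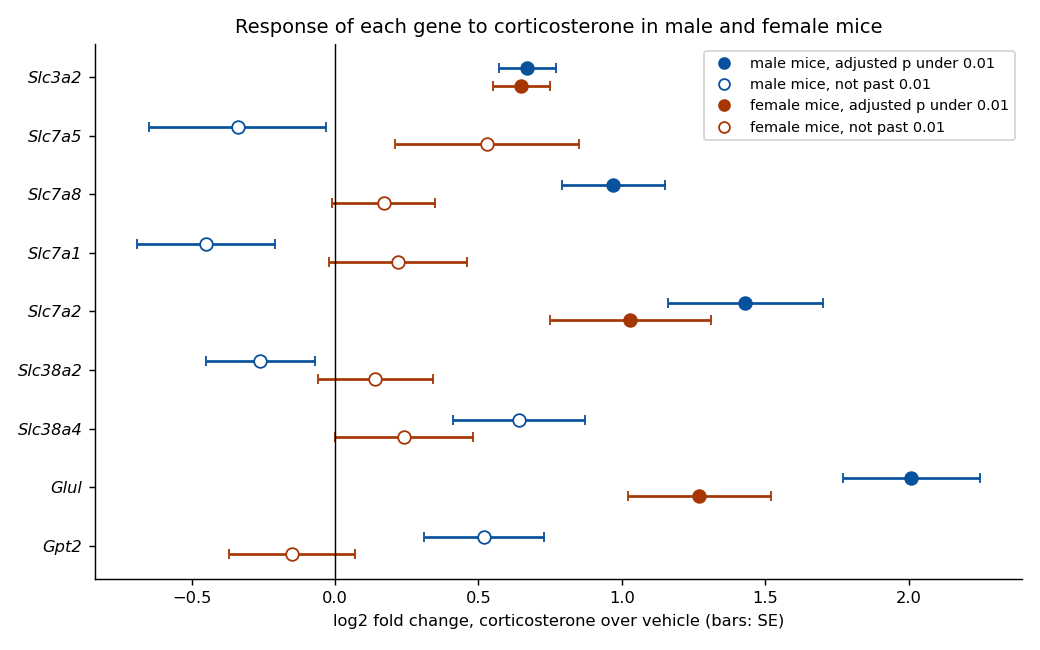
Log2FC of corticosterone over vehicle (x axis) for the 9 genes tested, with SE as bars, in male (blue) and female mice (brown); filled points passed an adjusted p of 0.01. Slc3a2 has nearly equal values in both sexes (0.67 and 0.65), whereas Slc7a8 is at 0.97 in males and 0.17 in females.

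The levels before treatment spanned a wide range. Per kb of merged exons, Glul led in vehicle-treated males with 75.3 CPM per kb (SD 20.5, n = 6), followed by Slc38a4 with 45.8 (SD 10.4) and Gpt2 with 45.5 (SD 9.52), then Slc38a2 with 14.7 (SD 2.89). Slc3a2 with 7.84 (SD 0.759) and Slc7a2 with 6.79 (SD 1.80) came next, then Slc7a8, Slc7a5, Slc7a1 and Slc38a1. The means of Slc38a4 and Gpt2, and of Slc3a2 and Slc7a2, lay close together beside their SDs. Differences between genes within the same mice were not tested. In vehicle-treated females Glul again led with 115 CPM per kb (SD 35.1, n = 6), ahead of Gpt2 with 45.8 (SD 13.1) and Slc38a4 with 29.1 (SD 10.3). After corticosterone Glul stood at 304 CPM per kb (SD 39.7, n = 6) in males and 278 (SD 109, n = 5) in females. Slc7a2 had passed Slc38a2 in the order of means in both sexes. The means were 18.4 (SD 3.69) against 12.3 (SD 2.60) CPM per kb in males and 17.6 (SD 11.2) against 11.5 (SD 1.61) in females. In females the gap between these 2 means was smaller than the SD of Slc7a2 and was not tested.

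The sexes were compared directly as well. With vehicle, 0 of the 9 genes passed the threshold in edgeR's test, in DESeq2 or in limma-voom. Of all 13049 genes edgeR called 0.958%, DESeq2 284 and limma-voom 187. In edgeR, 4 of the 9 had an unadjusted p under 0.05. These were Slc38a4 and Slc38a2, with higher means in males, and Glul and Slc3a2, with higher means in females. After corticosterone, 1 of the 9 passed, beside 23.3% of all genes in either direction and 9.31% higher in males. This was Slc38a4, with means of 304 and 147 CPM and a log2FC of 1.05 between treated males and treated females (SE 0.24, adjusted p = 0.00229). DESeq2 called 3 of the 9 higher in males, adding Slc7a8 (log2FC 0.62, SE 0.19) and Gpt2 (0.69, SE 0.22). Of all 13049 genes DESeq2 called 1727 higher and 2116 lower in males. With limma-voom Slc38a4 was called higher and Slc7a1 lower in males (-0.80, SE 0.23), beside 1377 higher and 2061 lower of all genes. For Slc38a4, M12, the lowest treated male at 199 CPM, lay below F2, the highest treated female at 203 CPM. The other treated males lay above all treated females. Without F10 and M8 the log2FC was 0.92 (SE 0.26, adjusted p = 0.0141). The sexes differed by 0.65 (SE 0.23, adjusted p = 0.166) with vehicle already, and the responses of Slc38a4 differed by 0.40 (SE 0.33, adjusted p = 0.418). All of the 10 genes overlapped between males and females under either treatment. Whether the sexes were processed together is not stated, and a batch of the sexes and sex itself cannot be told apart in these comparisons.

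The interaction of sex and treatment tests the difference between the 2 responses. It called 0 of the 9 genes in edgeR, in DESeq2 and in limma-voom. Of all 13049 genes edgeR called 0.690%, DESeq2 896 and limma-voom 693. In edgeR Slc7a8, Gpt2 and Glul had an unadjusted p under 0.05. All 3 had the larger log2FC in males. A response called in males and not in females, as for Slc7a8, was thus not shown to differ between the sexes at the threshold used.

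The spread among the treated females was wide, with an SD of 363 CPM for Glul against 132 CPM among the treated males, and of 102 against 33.7 CPM for Slc7a2. F4 carried a high level of Fkbp5, 207 CPM, yet levels like those of vehicle-treated females for Foxo1 (20.8 CPM, vehicle range 17.0 to 23.5), Ddit4 (9.73 CPM, vehicle range 7.47 to 26.9) and Glul. Tsc22d3 was at 87.8 CPM in F4, below the vehicle range of 99.2 to 203 CPM. In the same mouse Slc7a2 was at 4.09 times the vehicle mean and Slc43a1 at 1.83 times. The other 4 treated females had Glul at 2.21 to 3.40 times the vehicle mean. In males the 6 treated mice stood at 3.41 to 4.76 times the vehicle mean for Glul and at 2.06 to 3.46 times for Slc7a2.

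**Figure D3:**
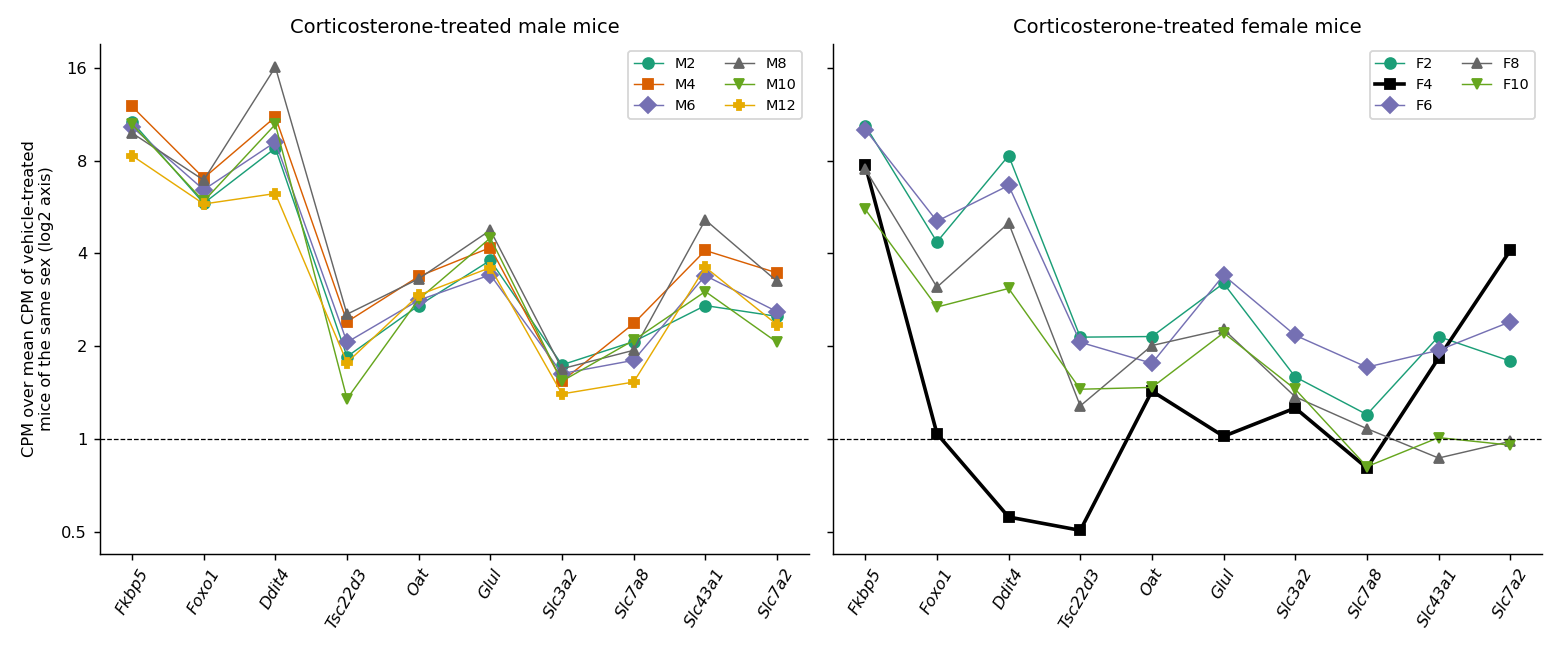
CPM of each corticosterone-treated mouse divided by the mean of vehicle-treated mice of its sex (y axis, log2 scale; dashed line at 1) for 4 glucocorticoid-responsive genes and 6 amino acid genes (x axis), males on the left and females on the right. F4 (black) is at 1.04 for Foxo1 and 1.02 for Glul but at 7.73 for Fkbp5 and 4.09 for Slc7a2. The males lie between 3.41 and 4.76 for Glul and, more widely, between 6.26 and 16.1 for Ddit4.

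Adipocyte markers were unevenly spread over the treated females, with a score (mean log2 CPM of the markers) of 8.44 in F2, 9.36 in F6 and 8.32 in F10, 6.64 in F4 and 3.27 in F8, against 3.24 to 6.92 in vehicle-treated females and 2.57 to 6.52 in males. Glul was highest in F6 and F2, at 1299 and 1220 CPM, which also had the highest scores. It was at 865 CPM in F8, the treated female with the fewest adipocyte transcripts, and at 843 CPM in F10 with many. With the adipocyte score as a covariate, Glul had a log2FC of 1.20 (SE 0.28, adjusted p = 0.00753) and Slc3a2 of 0.55 (SE 0.11, adjusted p = 0.00240) in females. Among males the scores of treated and vehicle-treated mice overlapped, and the same covariate left the 4 calls in males in place. Fibroblast markers were lower in corticosterone-treated males, where the score was 4.47 to 5.02 against 6.16 to 6.93 with vehicle, beside 6.22 to 7.07 with vehicle and 5.38 to 6.68 with corticosterone in females. Erythrocyte markers, 6 listed and 5 tested, were higher on average with corticosterone in both sexes. They summed to 104 to 204 CPM with vehicle and 189 to 675 CPM with corticosterone in males, and to 85.2 to 398 and 293 to 604 CPM in females, with Slc4a1 alone at 0 in some mice. The 8 slow fiber markers summed to 64.6 to 5934 CPM with vehicle and 58.1 to 2629 CPM with corticosterone in males. In females they summed to 59.0 to 6454 and 205 to 3537 CPM. In vehicle-treated M3, M5, F3 and F5, with slow fiber scores of 8.88 to 9.50, Gpt2 stood at 202 to 208 CPM, below the other vehicle-treated mice. With this score as a covariate 4 of the 9 genes were called in males and 3 in females, beside 3640 and 1785 of all genes. The part of fibroblasts and of erythrocytes in the values of the 10 genes was not tested.

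**Figure D4:**
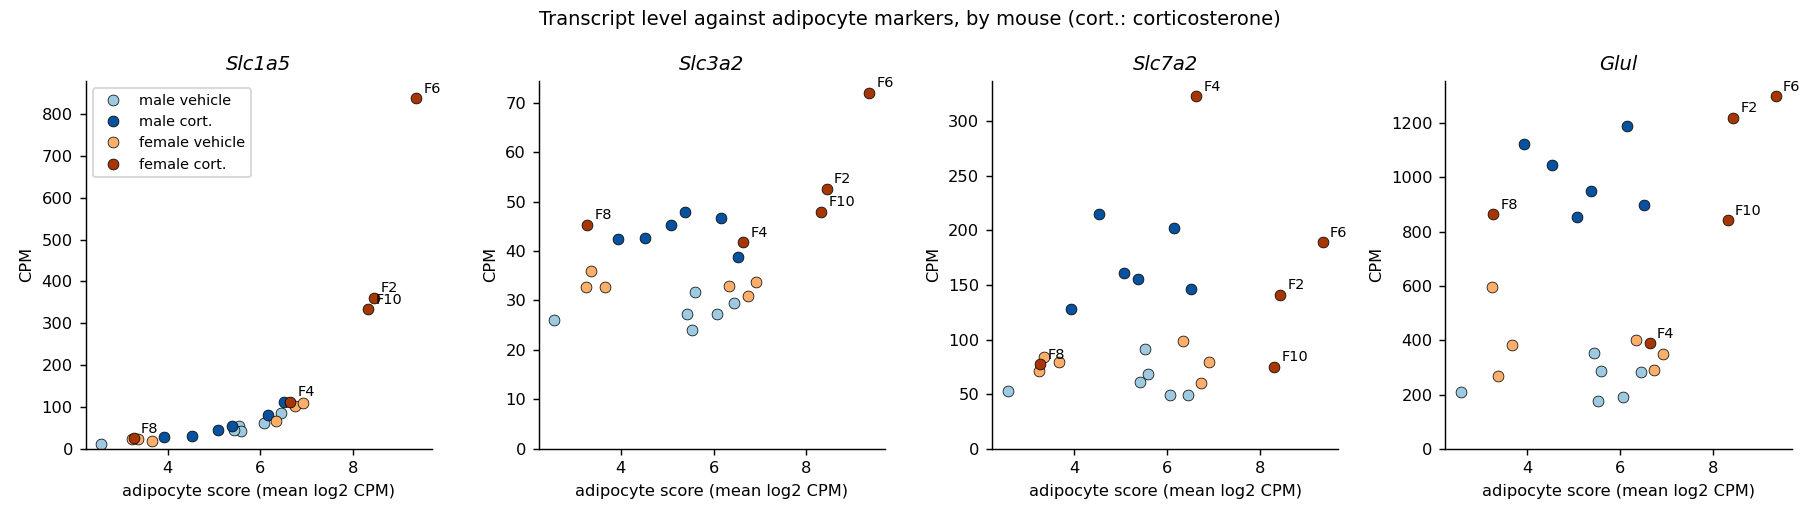
CPM of 4 transcripts (y axes, from 0) against the adipocyte score (x axis, mean log2 CPM of 10 markers) in each of the 23 mice, coloured by group, with treated females labelled. Slc1a5 follows the score in all groups, up to 838 CPM in F6. Glul is highest in F6 (1299 CPM) at a score of 9.36, and stands at 865 CPM in F8 at a score of 3.27.

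The other amino acid transporters were examined as a list of 42 genes, of which 20 were tested and the rest had too few counts. In males 2 rose and 1 fell, beside 13.2% of all genes tested called upwards and 26.3% in either direction. In females 4 rose and 1 fell, beside 7.40% upwards and 13.4% in either direction. The median log2FC of the 20 transporters was 0.08 in males and 0.59 in females. The test of the difference called none of them in edgeR, with 8 at an unadjusted p under 0.05. DESeq2 called 1 with the higher log2FC in males, and limma-voom 1 with the lower log2FC in males. Of all genes DESeq2 called 896 and limma-voom 693. Slc7a6, the light chain y+LAT2 that pairs with Slc3a2 and exchanges arginine for glutamine, rose in both sexes, by 0.52 (SE 0.11, adjusted p = 0.000579) in males and 0.54 (SE 0.11, adjusted p = 0.00138) in females. Slc43a1, the uniporter LAT3 for leucine and its like, rose in males by 1.87 (SE 0.24, adjusted p = 3.79e-06), from 22.0 to 35.7 CPM with vehicle to 78.0 to 148 CPM with corticosterone. In females it had 35.2 to 78.8 CPM with vehicle and 39.7 to 98.4 CPM with corticosterone, a log2FC of 0.64 (SE 0.24, adjusted p = 0.0530), and the responses differed by 1.23 (SE 0.34, adjusted p = 0.0259). Slc6a6, the taurine transporter, fell in both sexes, by a log2FC of -0.59 (SE 0.12, adjusted p = 0.000433) in males and -0.48 (SE 0.12, adjusted p = 0.00720) in females.

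Slc1a5, the glutamine exchanger ASCT2, rose in females by 2.55 (SE 0.66, adjusted p = 0.00716), with 25.3 CPM in F8, 113 in F4, 334 in F10, 361 in F2 and 838 in F6 against 18.7 to 109 CPM with vehicle. F2, F6 and F10, in which Slc1a5 was highest, were the mice with the high adipocyte score, and with the score as a covariate its log2FC was 0.56 (SE 0.16, adjusted p = 0.0281). Slc38a10 rose in females by 0.76 (SE 0.15, adjusted p = 0.00103) and Slc38a6 by 0.67 (SE 0.17, adjusted p = 0.00630). Under that covariate edgeR called 731 of all 13049 genes in females and 3775 in males. None of the 20 transporters was called in females, with 9 at an unadjusted p under 0.05, and in males 2 were called upwards and 1 downwards. Unlike that of Slc1a5, the other log2FC in females changed less, to 0.64 (adjusted p = 0.0128) for Slc38a10, 0.61 (adjusted p = 0.0344) for Slc38a6, 0.45 (adjusted p = 0.0178) for Slc7a6 and -0.38 (adjusted p = 0.0483) for Slc6a6.

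Enzymes that make or use glutamine, glutamate, alanine and aspartate changed in both directions. Of 29 listed genes 26 were tested. In males 4 rose and 6 fell, and in females 6 rose and 4 fell, with medians of -0.09 and 0.07. Of all genes tested 26.3% were called in males and 13.4% in females. Oat, which turns ornithine into the precursor of glutamate, rose in both sexes. Its level went from 202 to 256 CPM with vehicle to 626 to 780 CPM with corticosterone in males and from 210 to 317 to 364 to 546 CPM in females, without overlap. The log2FC was 1.58 (SE 0.11, adjusted p = 7.15e-09) in males and 0.82 (SE 0.12, adjusted p = 5.18e-05) in females, and the difference of 0.77 (SE 0.16) had an adjusted p of 0.0113. Prodh, which starts the breakdown of proline to glutamate, rose by 1.38 (SE 0.27) in males and 2.01 (SE 0.28) in females, and Ctps2, a glutamine-using CTP synthase, by 0.88 (SE 0.24) and 1.11 (SE 0.25).

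Aldh18a1, which draws glutamate towards proline, fell in males by a log2FC of -1.73 (SE 0.23, adjusted p = 5.19e-06), from 4.19 to 6.22 CPM to 0.663 to 2.04 CPM. In females its log2FC was -0.55 (SE 0.23, adjusted p = 0.0770). Aldh4a1 of proline breakdown, the purine enzyme Ppat, which uses glutamine, and Adssl1 of the purine nucleotide cycle fell in both sexes, with log2FC of -0.58, -0.64 and -0.48 in males and -0.52, -0.80 and -0.70 in females. Males also had a rise of Asrgl1, by 0.99, and falls of Psph, by a log2FC of -0.90, and of Bcat2, the mitochondrial transaminase of branched-chain amino acids, by a log2FC of -0.37. Gpt, the cytosolic alanine transaminase, rose in females by 1.13 (SE 0.23, adjusted p = 0.00112), whereas its mitochondrial counterpart Gpt2 did not pass. Serine synthesis genes Phgdh and Psat1 also passed in females, at 2.82 (SE 0.70) and 1.89 (SE 0.51). Phgdh had 30.8 CPM in F10, 42.1 in F2 and 77.3 in F6 but 4.86 in F4 and 1.87 in F8, and with the adipocyte score as a covariate the log2FC was 0.61 (SE 0.32, adjusted p = 0.223) for Phgdh, 0.83 (SE 0.38, adjusted p = 0.153) for Psat1 and 0.74 (SE 0.21, adjusted p = 0.0241) for Gpt. In that fit 2 enzymes rose and 3 fell in females, beside 352 and 379 of all genes tested. The interaction called none of the 26 enzymes in edgeR, with 10 at an unadjusted p under 0.05. DESeq2 called 4, 2 in each direction, and limma-voom 2, 1 in each direction, beside 896 and 693 of all genes.

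**Figure D5:**
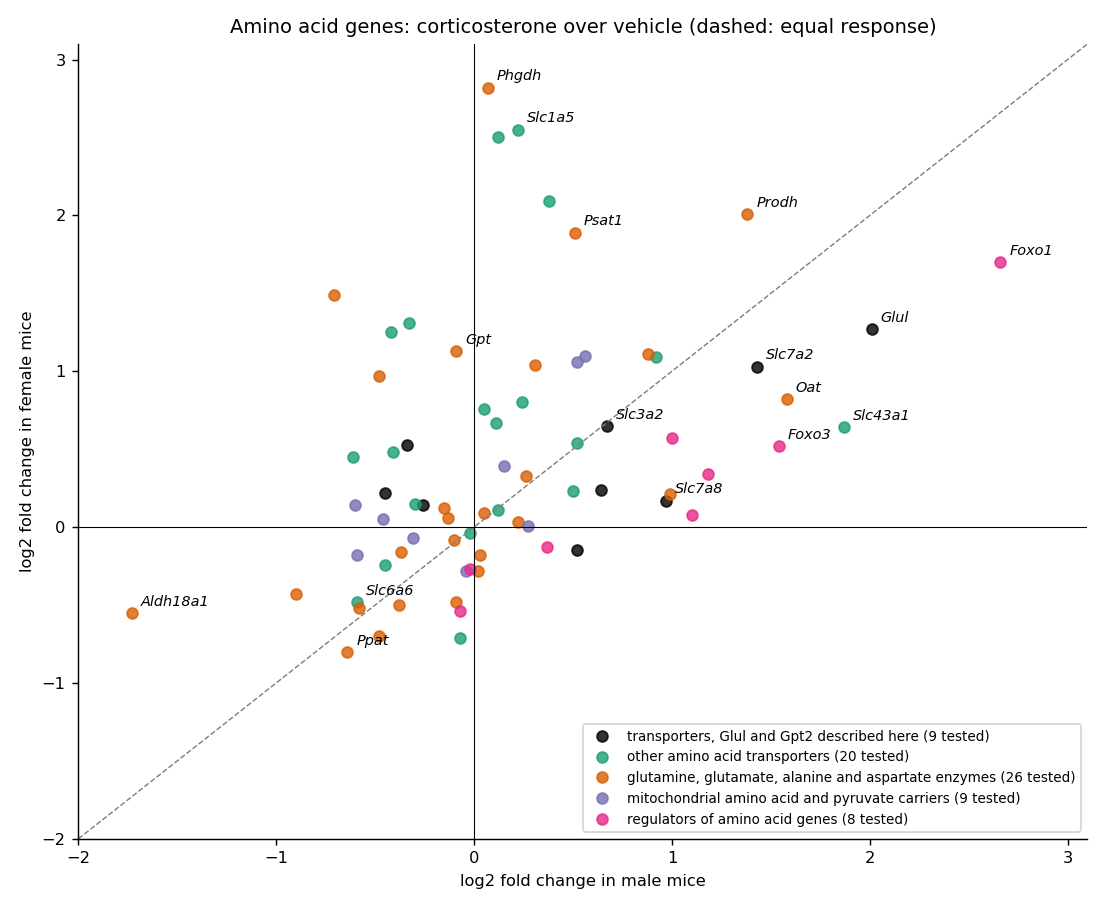
Log2FC of corticosterone over vehicle in males (x axis) and in females (y axis) for the tested genes of 5 lists, with the dashed line marking equal values. Glul, Slc7a2, Oat and Slc43a1 lie below the line, with larger values in males, and Slc1a5, Phgdh and Psat1, which were high in treated females with many adipocyte transcripts, lie above it.

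Of 10 mitochondrial carriers of amino acids and pyruvate, 9 were tested. In males 3 fell, namely the ornithine carrier Slc25a15 (log2FC -0.59, adjusted p = 8.25e-05), Slc25a39 (-0.60, adjusted p = 4.98e-05), known as a carrier of glutathione, and the pyruvate carrier subunit Mpc1 (-0.46, adjusted p = 0.00478). In females edgeR and DESeq2 called none and limma-voom 1, with 2 at an unadjusted p under 0.05 in edgeR. Of all genes tested, edgeR called 26.3% in males and 13.4% in females. In females DESeq2 called 2458 of all genes and limma-voom 2454. The response of Slc25a39 differed between the sexes by -0.74 (SE 0.14, adjusted p = 0.00781). Vehicle-treated males had 56.7 to 69.2 CPM of Slc25a39 and treated males 32.8 to 44.4 CPM, whereas females had 48.6 to 68.3 and 53.5 to 73.2 CPM.

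Regulators known to act on amino acid genes were taken as a list of 8, with glucocorticoid-induced genes such as Klf15 and Tsc22d3 among them. All 8 were tested, and 5 rose in males, beside 13.2% of all genes upwards and 26.3% in either direction. In females 2 rose and 1 fell, beside 7.40% upwards and 13.4% in either direction. Foxo1 and Foxo3, transcription factors of muscle protein breakdown, rose in both sexes, with log2FC of 2.66 and 1.54 in males and 1.70 and 0.52 in females. For Foxo3 the difference of 1.02 (SE 0.18, adjusted p = 0.00607) passed the threshold, with 22.1 to 26.3 CPM in vehicle-treated and 56.6 to 88.0 CPM in treated males and 31.1 to 48.5 and 42.9 to 64.3 CPM in females. Klf15, a glucocorticoid-induced factor that drives amino acid breakdown, rose in males by 1.18 (SE 0.14, adjusted p = 1.17e-06), beside 0.34 (SE 0.14, adjusted p = 0.0774) in females. Eif2ak4, a kinase that senses uncharged tRNA, rose in males by 0.37. Tsc22d3, an anti-inflammatory glucocorticoid target, rose in males too (adjusted p = 0.00421), from 119 to 220 CPM with vehicle to 233 to 439 CPM with corticosterone. The glucocorticoid receptor gene Nr3c1 fell in females by a log2FC of -0.54 (SE 0.13, adjusted p = 0.00442). Atf4, the factor of the amino acid shortage response, had a log2FC of -0.02 (SE 0.12, adjusted p = 0.917) in males and -0.27 (SE 0.13, adjusted p = 0.112) in females.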

How the data were processed

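The authors homogenized quadriceps, made stranded mRNA libraries and sequenced 100 base read pairs; per the labels, tools included STAR 2.7.3a and HTSeq 0.12.4 on mm10. The deposited values are raw counts per Ensembl gene and mouse, without normalization. The 5 summary entries for unassigned reads (10.7% to 15.3% per mouse) were left out. GENCODE M21 named 55480 IDs and left 93 unmatched. No pair of replicates agreed within sampling noise (lowest chi-square per degree of freedom 14.4), and 3 counts came to at most 0.144 CPM.

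Counts were tested in R 4.3.3 with edgeR 4.0.16 (quasi-likelihood, TMM factors 0.832 to 1.208, 4 group means, 23 mice), on genes whose normalized count exceeded 20 in 4 or more mice of any 1 group, with Benjamini-Hochberg adjustment over all of them and a threshold of 0.01. SE was the size of log2FC over the root of F. Marker scores average log2 CPM over the tested genes of a list, with a prior count of 1. Alternatives were DESeq2 1.42.0, the median of ratios, filterByExpr (15045 genes), no filter (31922 genes), limma-voom (limma 3.58.1), each sex alone, a log2FC limit of 1, a block on mouse numbers, F10 and M8 left out, 4 marker scores as covariates, and each mouse left out. The fits were tested on simulated data. All 10 genes are named, and from each list those past the threshold in at least 1 sex, except 1 enzyme that is not reported here; other genes were chosen after their values were seen, as were the CCAAT search and counts of other lists by tool. The genes and lists were chosen with earlier results of these data known. Promoters came from RefSeq (GRCm38.p6).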

Additional observations from a re-analysis of the deposited data

Results flagged for a closer look

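Slc7a5 stood at 3.84 CPM in M1, where the other vehicle-treated males had at most 2.21 CPM; the gap exceeded Dixon's limit for a group of 6. This was 1 of 40 groups of a gene and a condition examined among the 10 genes, and chance flags about 1 in 20.

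The log2FC of Foxo3 was larger in males by 1.02, and that of Slc25a39 differed by -0.74 between males and females, both by the interaction test. With the adipocyte score as a covariate these differences were 1.06 (SE 0.19, adjusted p = 0.0163) and -0.65 (SE 0.14, adjusted p = 0.0251), past 0.01 in neither case.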

How the results depend on the processing

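The 5 comparisons of 9 genes gave 45 log2FC values, and their 1530 values under the alternatives kept direction and side of the threshold in 1465 cases. The calls of Slc3a2, Slc7a8, Slc7a2 and Glul in males and of Slc3a2 in females held in every fit run, apart from that with a log2FC limit of 1. Slc7a2 in females was not called in 7 other settings (0.80 to 1.02) and in 20 of 23 fits without 1 mouse (0.61 to 1.21 over all 23). Glul in females was not called with each sex alone (1.25, adjusted p = 0.0162), nor Slc38a4 between treated sexes without F10 and M8 (0.92). Calls were gained in 9 cases, all between the sexes, among them Slc7a8 without F6 (0.81) and Slc7a1 without M10 (-0.93) between treated sexes. The cause was not tested.

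A log2FC limit of 1 left 2 genes of the 10 called in males, and each sex alone left 1 in females. Over all genes, that limit called 982 in males, 732 in females, 40 in the interaction, 75 between vehicle-treated and 1014 between treated sexes. In females, each sex alone called 561 and the adipocyte covariate 731, with 1004 (without F6) to 2359 (without F8) when 1 mouse was left out, and 1117 without F2. The interaction called 896 with DESeq2, 693 with limma-voom, 10 without a filter, 4 without F10 and M8, 1, 9 and 30 with the adipocyte, endothelial and slow fiber covariates, and 1 (without M3) to 893 (without F8) without 1 mouse. DESeq2 called 284 between vehicle-treated sexes. Between treated sexes, leaving out F10 and M8 gave 1382, the adipocyte covariate 1425, and leaving out 1 mouse 1885 (F10) to 3742 (F8).

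Uncalled values near 0 changed sign. Without 1 mouse the ranges were -0.05 to 0.29 for Slc7a8 in females, -0.05 to 0.19 for Slc3a2 in the interaction, and, between the sexes, -0.19 to 0.07 (Slc7a1, vehicle), -0.10 to 0.14 (Gpt2, vehicle), -0.12 to 0.48 (Slc7a2, treated) and -0.07 to 0.31 (Glul, treated). The endothelial covariate gave -0.02 (Slc3a2, interaction), 0.01 (Gpt2) and -0.11 (Slc7a2), the slow fiber covariate 0.01 (Slc7a1) and -0.03 (Slc7a2), limma-voom 0.05 (Gpt2) and -0.02 (Glul), and leaving out F10 and M8 -0.16 (Slc7a2).

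Males and females share mouse numbers, and the labels do not say that these pair them. Of 11 pairs, 7 correlated over 0.1 (r from -0.377 to 0.477), and 4 of 11 females were closest to the male of their number. A block on the number gave 97 interaction calls, 137 between vehicle-treated and 2262 between treated sexes, and Gpt2 at 0.01 between vehicle-treated sexes. It also called Slc38a2 (0.52) and Slc38a4 (0.69) between vehicle-treated and, beside Slc38a4, Slc7a8 (0.70) and Gpt2 (0.68) between treated sexes. With 3 counts at up to 0.144 CPM, depth limits Slc38a1 most.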
